A study of Mus musculus with 24 samples.

Results

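The genes described here are the matrix metalloproteinases (Mmp), the ADAMTS proteases, the ADAMTS-like proteins (Adamtsl) and the tissue inhibitors of metalloproteinases (Timp) in fetal arteries with and without the transcriptional regulator Prdm6. They were chosen by a rule on gene names, with earlier results of these data known. The rule took every row of the count table whose Ensembl identifier belongs to a protein-coding mouse gene of these names. The names were an Mmp number, Timp1 to Timp4, or a symbol that starts with Adamts. This gave 50 genes of 54752 rows, made up of 22 Mmp, 19 Adamts, 5 Adamtsl and 4 Timp genes. Of these, 39 had enough counts to be tested and 11 did not.

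Bulk RNA-Seq was performed on the ductus arteriosus (DA), the fetal vessel that joins the pulmonary artery to the aorta, and on the ascending aorta of mouse embryos, which were taken at E18.5, shortly before birth. Prdm6-deficient embryos were Wnt1Cre;PRDM6f/f, in which Cre is expressed in neural crest cells from the transgene that the study's methods name Wnt1Cre2 and Cre removes part of both floxed Prdm6 alleles. Controls were littermates, most of them PRDM6wt/f, with 1 PRDM6wt/wt embryo (control DA replicate 3) and 1 Wnt1Cre;PRDM6wt/wt embryo (control DA replicate 2 and control aorta replicate 3). All mouse lines were on a C57/Black6 background, and cells of these vessels that do not come from the neural crest keep Prdm6. The 23 libraries analysed were 7 control DA, 5 Prdm6-deficient DA (replicates 1, 2, 5, 6 and 7), 6 control aorta and 5 Prdm6-deficient aorta libraries. Replicate 4 of the Prdm6-deficient DA is left out, as not analysed here. The first and second of the Prdm6-deficient DA replicates are pools of 2 embryos, and 6 control embryos gave both vessels. Some Prdm6-deficient embryos did so too. DA replicates 5 and 7 share their embryos with aorta replicates 3 and 5, and the pool of DA replicate 2 with aorta replicates 1 and 2.

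Matrix metalloproteinases are zinc proteases that cut collagens, elastin and many other proteins outside the cell, either as secreted enzymes or anchored in the membrane, and the 4 Timp proteins block them. ADAMTS proteases act on narrower sets of substrates, such as the proteoglycans versican and aggrecan, the ends of procollagens, or proteins of the fibrillin microfibrils. ADAMTS-like proteins share the matrix-binding domains of this family but lack the protease domain, and several of them bind fibrillin. In the arterial wall these proteins shape the elastic and collagen matrix made by smooth muscle cells, and the DA remodels this matrix as it prepares to close after birth.

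The libraries held 15163931 to 22610501 counts, and a count of 3 was worth between 0.133 and 0.198 CPM. CPM here is the count divided by an effective library size, which the trimmed mean of M-values (TMM) sets. Levels of Prdm6 itself in the DA spanned 84.95 to 127.5 CPM among controls and 58.65 to 78.54 CPM among Prdm6-deficient libraries. In the aorta it was at 95.6 to 135.5 CPM in controls and 61.91 to 81.2 CPM in Prdm6-deficient samples, and in neither vessel did the genotypes overlap. The table sums all exons of Prdm6, the floxed ones included. A gene was called when edgeR's quasi-likelihood test gave a Benjamini-Hochberg adjusted p under 0.01 and a log2 fold change above 0.5 in either direction, over the 16463 genes tested. In bulk tissue, fewer cells of a type and less RNA per cell cannot be told apart.

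Defining markers were read first. Of 8 smooth muscle markers, 6 were called lower in Prdm6-deficient than in control DA, and 7 were called higher in the DA than in the aorta of controls. In the DA their summed level was 14390 to 25420 CPM for controls and 9958 to 12200 CPM for Prdm6-deficient libraries. In the aorta it was 8549 to 12170 CPM for controls and 9498 to 11230 CPM for Prdm6-deficient libraries, and none of the 8 was at 0 in any group. Of 7 tested melanocyte markers, 4 were called lower in Prdm6-deficient DA, where the list summed to 2.442 to 4.957 CPM with Tyr and Slc45a2 at 0, against 33.11 to 237.4 CPM in control DA. Of 7 tested cartilage markers, 2 were called higher and 1 lower in Prdm6-deficient DA (265.5 to 331.3 CPM, Matn1 at 0, against 103.7 to 197.1 CPM, Matn1 at 0). Adventitial fibroblast markers gave 1 call in each direction among 8 in each vessel, and Schwann and neuron markers gave 1 higher call among 9 in each vessel. Endothelial markers gave 3 higher calls among 8 in the Prdm6-deficient aorta, and 0 of 8 by edgeR in the Prdm6-deficient DA (3 at an unadjusted p under 0.05, 0 called by DESeq2). Macrophage and leukocyte markers gave 0 calls of 8 by edgeR in the aorta, with 5 at an unadjusted p under 0.05 and 2 called lower by DESeq2. Cardiomyocyte markers gave 0 of 8 by edgeR and by DESeq2 in the DA (2 at an unadjusted p under 0.05), with sums of 35.17 to 1166 CPM in control and 94.88 to 458.7 CPM in Prdm6-deficient DA. Epithelial and thymus markers summed to at most 58.37 CPM in any library, and red blood cell markers to 13170 to 137800 CPM with wide overlap between the groups.

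In control DA the best expressed genes of the group, corrected for length as CPM per kilobase of exon, were Timp2 and Mmp2. Timp2, a secreted inhibitor that also takes part in the activation of Mmp2, and Mmp2, the gelatinase that degrades denatured collagen, both had a mean level of 162.4 CPM per kilobase. Mmp14, the membrane-anchored protease that activates Mmp2, followed at 97.08 CPM per kilobase, and Adamts2, which trims the amino-terminal propeptide of fibrillar procollagens, at 77.92 CPM per kilobase. Next came Mmp23 (65.13 CPM per kilobase), the versican-cleaving protease Adamts1 (63.34 CPM per kilobase) and the fibrillin-linked protease Adamts10 (23.27 CPM per kilobase). Adamtsl4, which binds fibrillin-1, led the ADAMTS-like genes at 16.66 CPM per kilobase. Mmp2, Mmp14 and Mmp23 together made up most of the summed Mmp level in control DA, with shares of 44.96%, 26.87% and 18.03%, and Timp2 made up 79.26% of the summed Timp level.

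**Figure D1:**
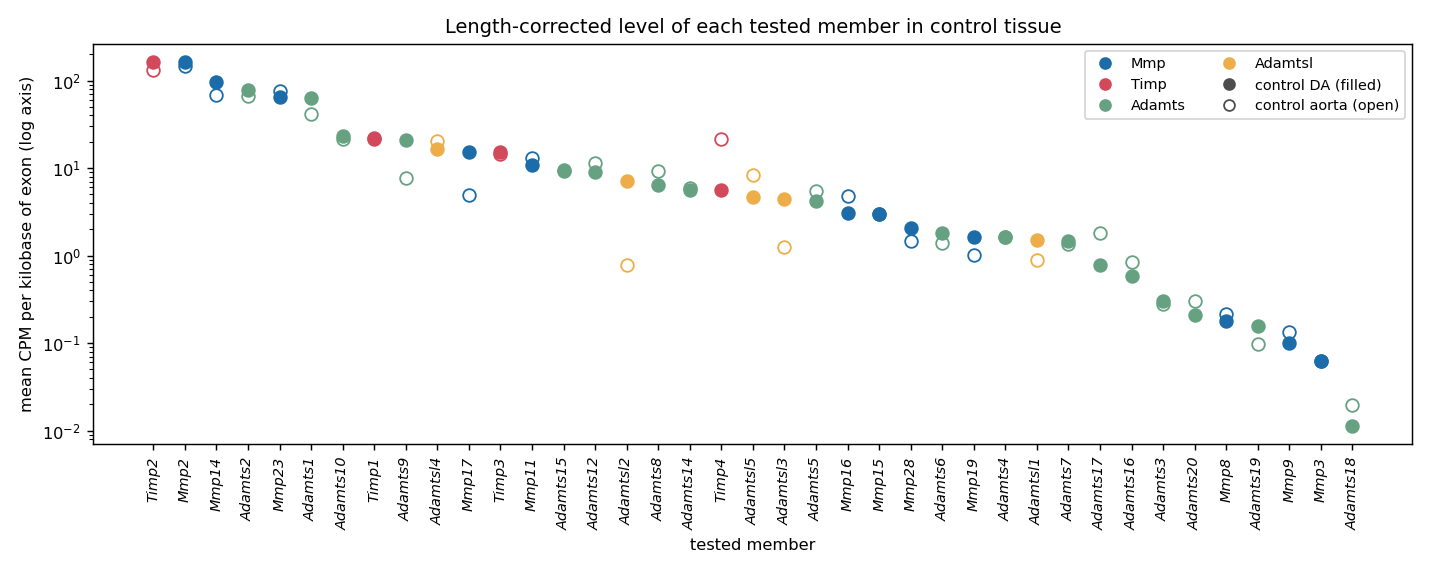
Mean level of each of the 39 tested genes in control DA (filled) and control aorta (open), in CPM per kilobase of exon on a log axis, ordered by the control DA level and coloured by family. Timp2 and Mmp2 lead at 162.4 CPM per kilobase, and Timp4 and Adamtsl2 are among the genes whose filled and open points lie far apart.

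At the other end stood the secreted Mmp genes that lie side by side on mouse chromosome 9, from Mmp13 (chr9:7272514-7283331, mm10) to Mmp7 (chr9:7692090-7699585). This run of 9 genes holds the collagenases Mmp13, Mmp1b and Mmp8, the stromelysins Mmp3 and Mmp10, the macrophage elastase Mmp12, Mmp27, the tooth enamel protease Mmp20 and the matrilysin Mmp7, with no other protein-coding gene between neighbours. Mmp1b, Mmp7, Mmp10 and Mmp20 had no count in any of the 23 libraries. This allows a level of up to 0.133 to 0.198 CPM in each, on the unscaled total counts. Mmp13 and Mmp27 reached at most 9 counts and Mmp12 at most 6 counts in any library. Of the run, Mmp3 and Mmp8 passed the filter on low counts, with at most 41 and 51 counts. Mmp8 was at 0 in all 5 Prdm6-deficient DA libraries and at 0 to 31 counts in control DA, where 3 of 7 libraries were also at 0, and it was not called by edgeR (adjusted p = 0.0312), while DESeq2 called it lower (adjusted p = 0.00611). Neutrophil markers summed to 3.565 to 15.21 CPM in Prdm6-deficient DA, with Ly6g at 0, and to 0 to 19.36 CPM in control DA, with Elane at 0, and their part in the Mmp8 values was not tested.

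RefSeq promoter sequence (GRCm38.p6, the coordinates of mm10) was at hand for 35 of the 50 genes and was read from 250 to 11 bases before the annotated start. Where a gene had several promoters, a match in any of them was counted for the gene. The AP-1 motif TGANTCA, which reads the same on both strands, was found for 7 of the 9 genes of the chromosome 9 run. Of these 7, Mmp7 and Mmp12 each also had a promoter without a match. The motif was found for 0 of the other 26 genes with promoters. Of the 32851 promoters in the table, counted singly, 6.581% held it. The promoter of Mmp13 is shown as an example of this run (chr9:7272264-7272503, plus strand, GC content 40.83%), with capitals at the AP-1 match and at a TATAAA match.
Mmp13: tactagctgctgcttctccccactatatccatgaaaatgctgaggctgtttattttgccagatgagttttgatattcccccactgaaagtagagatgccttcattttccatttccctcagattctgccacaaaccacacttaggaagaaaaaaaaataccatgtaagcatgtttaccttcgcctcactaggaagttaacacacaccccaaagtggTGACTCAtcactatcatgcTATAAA

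Between Prdm6-deficient and control DA, 8 of the 39 tested genes were called (20.51%, against 5.43% of all genes tested). The 5 lower genes were Adamts1, Adamts2, Adamts9, Adamtsl2 and Adamtsl3 (2.82% of all genes were called lower), and the 3 higher genes were Adamts5, Adamts14 and Mmp16 (2.61% of all genes were called higher). Of 12 tested Mmp genes 1 was called, and of the 4 Timp genes 0 were called by edgeR or by DESeq2, with 2 at an unadjusted p under 0.05. The median log2 fold change over the 39 genes was -0.07, beside 0.01 over all genes tested. At an unadjusted p under 0.05, 21 of the 39 passed. The share of all genes passing this level was not worked out, here or in the comparisons below, so these counts cannot be set against it. The called genes by role were 3 of 7 proteoglycan-cleaving ADAMTS proteases, 2 of 3 procollagen N-proteinases, 1 of 4 tested membrane-type Mmp genes and 2 of 5 ADAMTS-like genes. The smooth muscle marker sum was lower in the same comparison, with 11070 CPM in the median Prdm6-deficient and 18750 CPM in the median control library, and its part in these values was not tested.

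Adamts9 (chr6:92772699-92943492, minus strand), a protease that cuts versican and aggrecan, showed the largest fall in the DA among the called genes. It was at 228.6 CPM in the lowest control DA library, 259.1 CPM in the median and 489.0 CPM in the highest. The 5 Prdm6-deficient DA libraries were at 103.0, 86.04, 124.1, 85.95 and 103.9 CPM. Every Prdm6-deficient DA library was thus below every control DA library, and the mean was 32.31% of the control mean. The log2 fold change was -1.63 ± 0.16 (SE; adjusted p = 7.06e-08), and it was -1.83 among the embryos of the first series of animal numbers and -1.60 among those of the second. Control aorta libraries ranged from 93.47 to 151.5 CPM, which overlaps the Prdm6-deficient DA. Exons of 2 genes on the opposite strand, A730049H05Rik and Gm15737, cover 9.2% and 2.8% of the exon bases of Adamts9, and the counting is not stated to use strand.

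Adamts1 (chr16:85793827-85803113, minus strand), which also cleaves versican, was lower in the Prdm6-deficient DA as well. Control DA libraries ran from 248.7 CPM over a median of 361.8 CPM to 427.8 CPM, and the Prdm6-deficient libraries were at 171.5, 229.0, 176.6, 181.2 and 223.1 CPM. The groups did not overlap, and the Prdm6-deficient mean was 58.45% of the control mean (log2 fold change -0.77 ± 0.13, adjusted p = 7.57e-05). The difference was unequal between the series, at -1.16 in the first (adjusted p = 0.00111) and -0.47 in the second (adjusted p = 0.106).

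Adamts2 (chr11:50602084-50807573, plus strand) was also called lower. Its control DA libraries ran from 592.0 CPM over a median of 717.7 CPM to 936.4 CPM, and the Prdm6-deficient libraries were at 487.5, 432.2, 448.0, 388.1 and 449.5 CPM. All of the latter lay below all controls, and the mean was 60.63% of the control mean (log2 fold change -0.72 ± 0.10, adjusted p = 1.15e-05). Within the first series the log2 fold change was -0.84 (adjusted p = 0.0357), and within the second it was -0.67 (adjusted p = 0.000611).

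A pair of ADAMTS-like genes was lower too. Adamtsl2 (chr2:27079379-27108981, plus strand), a fibrillin-binding glycoprotein without protease activity, was at 40.32 CPM in the lowest, 61.83 CPM in the median and 66.34 CPM in the highest control DA library. The Prdm6-deficient DA libraries were at 28.92, 29.65, 20.34, 31.05 and 16.29 CPM, without overlap and at 44.65% of the control mean (log2 fold change -1.16 ± 0.26, adjusted p = 0.00247). The adjusted p was 0.0109 without replicate 7 of the Prdm6-deficient DA and 0.01 without replicate 5. It was 0.0295 within the first series (log2 fold change -1.14) and 0.0718 within the second (-1.28).

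Adamtsl3 (chr7:82335694-82614450, plus strand), another member without a protease domain, ran from 26.08 CPM over a median of 30.81 CPM to 49.66 CPM in control DA. The Prdm6-deficient libraries were at 10.85, 5.509, 20.66, 22.48 and 10.21 CPM, so replicates 5 and 6 were about level with each other and well above the remaining ones, but still under every control. The log2 fold change was -1.28 ± 0.25 (adjusted p = 0.000821). Without the 2 pooled libraries it was -0.93 (adjusted p = 0.0157), which ends the call. It was -1.13 in the first series (adjusted p = 0.121) and -2.01 in the second (adjusted p = 0.000235). Among the ADAMTS-like genes not called, Adamtsl1 had a log2 fold change of -0.74 (adjusted p = 0.0186), Adamtsl5 of -0.36 and Adamtsl4 of -0.23.

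**Figure D2:**
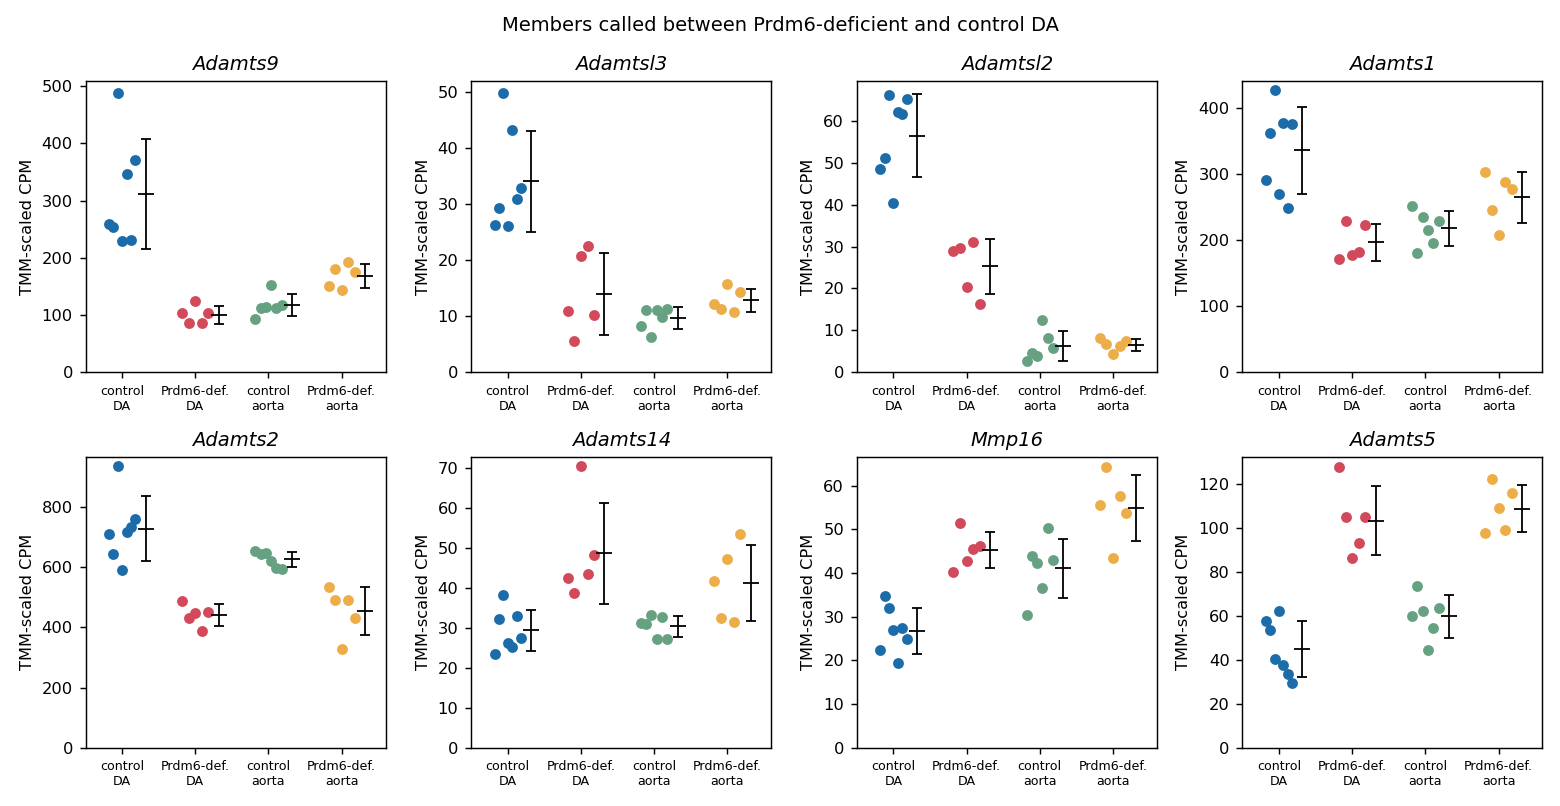
TMM-scaled CPM in each library for the 8 genes called between Prdm6-deficient and control DA, with the aorta libraries beside them. Points are libraries and black bars are the mean ± SD. In each panel the Prdm6-deficient DA points lie wholly below (Adamts9, Adamtsl3, Adamtsl2, Adamts1, Adamts2) or wholly above (Adamts14, Mmp16, Adamts5) the control DA points.

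The promoters of the 5 genes called lower in the Prdm6-deficient DA are shown, a set chosen by that direction alone. In the aorta the log2 fold changes of these genes ran from -0.46 for Adamts2 to 0.53 for Adamts9, none of them called. The 5 promoters have GC contents of at least 62.5%, beside a median of 52.08% over all promoters in the table. A high GC content is not particular to them. The promoter of Adamts14, which was called higher, is at 76.25%. Among genes not called, that of Adamts3 is at 77.92%, that of Timp2 at 67.5% and that of Mmp14 at 54.58%. The windows are chr6:92943545-92943784 for Adamts9 and chr16:85803124-85803363 for Adamts1 (both minus strand), and chr11:50601835-50602074 for Adamts2, chr2:27079129-27079368 for Adamtsl2 and chr7:82335444-82335683 for Adamtsl3 (all plus strand). Capitals mark the GC box GGGCGG or its reverse complement CCGCCC, and TATAAA.
Adamts9: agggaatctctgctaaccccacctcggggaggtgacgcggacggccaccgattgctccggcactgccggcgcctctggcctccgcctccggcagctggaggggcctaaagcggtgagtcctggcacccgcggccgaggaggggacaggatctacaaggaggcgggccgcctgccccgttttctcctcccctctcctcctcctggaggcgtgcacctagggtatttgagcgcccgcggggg
Adamts1: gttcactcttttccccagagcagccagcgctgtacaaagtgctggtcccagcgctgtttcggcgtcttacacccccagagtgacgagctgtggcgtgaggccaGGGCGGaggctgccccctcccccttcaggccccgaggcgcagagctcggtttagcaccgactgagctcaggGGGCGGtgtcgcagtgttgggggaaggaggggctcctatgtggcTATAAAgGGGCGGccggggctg
Adamts2: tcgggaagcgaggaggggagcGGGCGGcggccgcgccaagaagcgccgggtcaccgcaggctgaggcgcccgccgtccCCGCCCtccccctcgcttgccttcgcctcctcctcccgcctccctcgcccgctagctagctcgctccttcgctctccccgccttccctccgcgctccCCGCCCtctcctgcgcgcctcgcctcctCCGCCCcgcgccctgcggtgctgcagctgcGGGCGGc
Adamtsl2: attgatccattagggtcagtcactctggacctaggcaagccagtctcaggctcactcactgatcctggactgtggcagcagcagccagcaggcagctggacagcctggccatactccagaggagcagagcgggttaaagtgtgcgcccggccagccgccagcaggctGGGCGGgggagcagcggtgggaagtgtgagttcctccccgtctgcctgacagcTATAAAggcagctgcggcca
Adamtsl3: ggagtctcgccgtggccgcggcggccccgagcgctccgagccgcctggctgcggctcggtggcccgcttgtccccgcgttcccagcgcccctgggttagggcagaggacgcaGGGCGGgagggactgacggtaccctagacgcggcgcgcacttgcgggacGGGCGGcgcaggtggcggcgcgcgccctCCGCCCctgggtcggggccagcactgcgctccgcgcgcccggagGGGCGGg

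On both strands, the GC box was found in 4 of these 5 promoters, all but that of Adamts9. It was found for 17 of the 26 genes with promoters outside the chromosome 9 run, and in 31.32% of all promoters. TATAAA was found in the promoters of Adamts1 and Adamtsl2, against 12.08% of all promoters. The TEAD core GGAATG was found in none of the 5, and for 2 of the 35 genes with promoters (12.23% of all promoters). The CArG box, the motif bound by serum response factor, was found for 0 of the 35 genes (1.437% of all promoters). A missing match says only that these letters are not in this window.

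Adamts5 moved the opposite way to Adamts1, its neighbour. Both lie on the minus strand of chromosome 16, with Adamts5 at chr16:85856173-85901828, 53059 bases from Adamts1 and with no protein-coding gene between them. Adamts5, an aggrecan- and versican-cleaving protease, was at 29.67 CPM in the lowest, 40.43 CPM in the median and 62.39 CPM in the highest control DA library. The Prdm6-deficient DA libraries were at 127.6, 104.9, 86.59, 93.08 and 104.9 CPM, all above all controls and at 2.30 times their mean. This rise (log2 fold change 1.20 ± 0.15, adjusted p = 1.9e-06) was of similar size in the first series (1.12) and in the second (1.25).

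Adamts14 (chr10:61197112-61273438, minus strand), a procollagen N-proteinase like Adamts2, also rose while Adamts2 fell. Control DA libraries ran from 23.5 CPM over a median of 27.46 CPM to 38.15 CPM, and the Prdm6-deficient libraries were at 42.45, 38.68, 70.55, 43.64 and 48.24 CPM. The groups did not overlap, although the lowest Prdm6-deficient library lay only just above the highest control (log2 fold change 0.73 ± 0.15, adjusted p = 0.00113). Within the series the values were 0.57 (adjusted p = 0.345) and 0.68 (adjusted p = 0.0262). Adamts3, the remaining procollagen N-proteinase, had a log2 fold change of 0.11 ± 0.44 and was not called.

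Mmp16 (chr4:17852893-18119145, plus strand), a membrane-type protease able to activate Mmp2, was the one Mmp called in the DA. It ran from 19.32 CPM over a median of 26.88 CPM to 34.73 CPM in control DA, and it was at 40.33, 51.51, 42.79, 45.54 and 46.08 CPM in the Prdm6-deficient DA, without overlap (log2 fold change 0.76 ± 0.13, adjusted p = 0.000172). The first series gave 0.36 (adjusted p = 0.41) and the second 1.01 (adjusted p = 0.00138).

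Mmp2, Mmp14 and the Timp genes were not called in the DA. Mmp2 had a log2 fold change of -0.30 ± 0.09 (adjusted p = 0.0249) and Mmp14 of -0.19 ± 0.09 (adjusted p = 0.2). Among the inhibitors, the log2 fold change was -0.17 ± 0.06 for Timp2, -0.28 ± 0.11 for Timp3, 0.04 ± 0.16 for Timp1 and 0.48 ± 0.35 for Timp4, with adjusted p values of 0.0735, 0.0909, 0.917 and 0.46. Timp3, which binds to the matrix, shares 21.3% of its exon bases with Syn3 on the opposite strand. Mmp17, a membrane-type Mmp held by a lipid anchor, was at 55.3 to 129.3 CPM in control DA and 60.27 to 73.62 CPM in Prdm6-deficient DA. Its 2 lowest control values, 62.38 CPM in replicate 1 and 55.3 CPM in replicate 2, overlapped the Prdm6-deficient libraries, while the other 5 were at 100.5 to 129.3 CPM. These 2 libraries come from different series, and replicate 2 is from the Cre-positive control embryo. Among control DA libraries, replicate 2 had the lowest smooth muscle (14390 CPM) and melanocyte (33.11 CPM) sums. It also had the highest macrophage and leukocyte sum (190.8 CPM). Replicate 1 had the highest cardiomyocyte (1166 CPM) and adventitial fibroblast (2327 CPM) sums. The part of these differences in the Mmp17 values was not tested. Mmp17 was not called in the DA by edgeR (log2 fold change -0.65, adjusted p = 0.0212). It was called lower without control DA replicate 1 (-0.75, adjusted p = 0.00542) or without replicate 2 (-0.76, adjusted p = 0.00273). DESeq2 with all libraries also called it (-0.66, adjusted p = 0.00414).

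**Figure D3:**
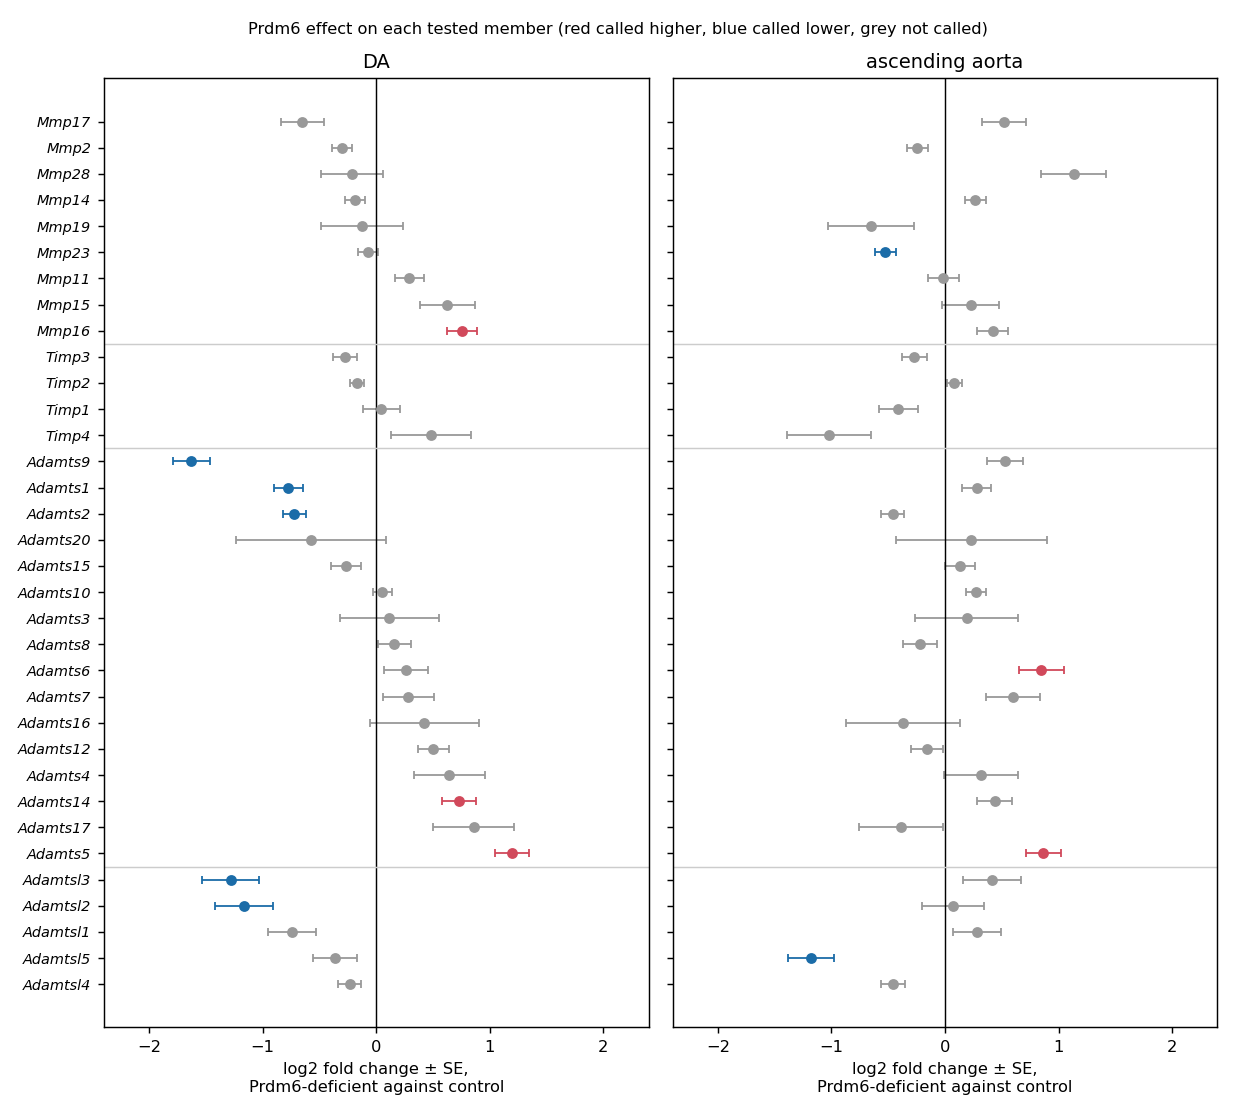
Log2 fold change ± SE of Prdm6-deficient against control samples in the DA (left) and the ascending aorta (right), with families separated by grey lines. Red and blue mark genes called higher and lower, and grey marks genes not called. Left out are 5 genes with an SE above 1 (Adamts18, Adamts19, Mmp3, Mmp8 and Mmp9). Adamts5 is red in both panels, and Adamts9 lies at -1.63 on the left and 0.53 on the right.

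In the ascending aorta, 4 of the 39 tested genes were called between the genotypes (10.26%, against 2.45% of all genes tested). Adamts5 and Adamts6 were higher (1.63% of all genes were called higher), and Adamtsl5 and Mmp23 were lower (0.826% of all genes were called lower). The median log2 fold change over the 39 genes was 0.23, beside -0.000998 over all genes tested, and 20 of the 39 had an unadjusted p under 0.05. The first series holds 2 Prdm6-deficient aortas and only 1 control aorta, and no fit was made within it. The second series holds 3 Prdm6-deficient and 5 control aortas, and 0 of the 39 genes were called within it by edgeR, with 18 at an unadjusted p under 0.05. Each of the 4 had the same direction there.

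Adamts5 was at 44.59 CPM in the lowest, 61.12 CPM in the median and 73.82 CPM in the highest control aorta. The Prdm6-deficient aortas were at 97.66, 122.4, 109.2, 98.93 and 115.8 CPM, all above all controls (log2 fold change 0.86 ± 0.16, adjusted p = 0.000579). The value within the second series was 0.92 (adjusted p = 0.0153). It was called higher in both vessels, and its change in the DA was not shown to differ from that in the aorta (difference of log2 fold changes 0.34 ± 0.22, adjusted p = 0.515).

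Adamts6 (chr13:104287835-104496695, plus strand), a fibrillin-linked protease, ran from 9.905 CPM over a median of 10.98 CPM to 11.97 CPM in control aorta. It was at 24.0, 18.92, 14.64, 21.92 and 19.22 CPM in the Prdm6-deficient aorta, again without overlap (log2 fold change 0.85 ± 0.20, adjusted p = 0.00885). This call was close to the threshold and was lost under 15 of 21 alternative settings, with log2 fold changes from 0.76 to 0.94. In the DA the same gene was at 5.684 to 20.01 CPM in controls and 14.26 to 20.69 CPM in Prdm6-deficient samples, which overlap.

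Adamtsl5 (chr10:80339110-80348412, minus strand), a microfibril-associated protein without a protease domain, was the strongest fall in the aorta among the called genes. Control aortas ran from 30.08 CPM over a median of 38.51 CPM to 50.19 CPM, and the Prdm6-deficient aortas were at 12.72, 20.62, 17.27, 20.06 and 15.46 CPM. They did not overlap, and the mean was 44.12% of the control mean (log2 fold change -1.18 ± 0.20, adjusted p = 0.000378). In the second series the value was -1.25 (adjusted p = 0.0133).

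Mmp23 (chr4:155650655-155653384, minus strand), a small membrane-associated Mmp, was at 153.6 CPM in the lowest, 170.6 CPM in the median and 216.4 CPM in the highest control aorta. The Prdm6-deficient aortas were at 131.7, 115.5, 125.7, 120.7 and 127.7 CPM, all below all controls (log2 fold change -0.53 ± 0.09, adjusted p = 0.000441). Its fold is just past the limit of 0.5, and without control aorta replicate 1 or 3 it was -0.46 or -0.48, which ends the call and leaves 2 of the 4. In the second series it was -0.47 (adjusted p = 0.0455).

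Several genes of the aorta, Mmp14 among them, had groups that did not overlap without being called. The share of all genes with such groups was not worked out. Mmp14 had a log2 fold change of 0.26 ± 0.09 (adjusted p = 0.114). Timp4, an inhibitor typical of cardiovascular tissue, was at 109.5 to 149.9 CPM in control aorta and at 63.85, 59.56, 64.29, 44.02 and 78.39 CPM in Prdm6-deficient aorta, 49.25% of the control mean. Its log2 fold change was -1.02 ± 0.37 (adjusted p = 0.132) in the fit of all libraries, where its spread is shared with the DA, in which control values ran from 6.562 to 71.28 CPM. In a fit of the aorta libraries alone the adjusted p was 1.9e-05. Mmp28, an Mmp of epithelia and other tissues that shares some exon bases with 1700020L24Rik on the opposite strand, was at 4.09 to 6.338 CPM in control aorta and at 13.83, 11.18, 11.45, 14.84 and 10.44 CPM in Prdm6-deficient aorta (log2 fold change 1.13 ± 0.28, adjusted p = 0.0143, and 0.000222 in the fit of the aorta alone). Adamts2 and Adamtsl4 had log2 fold changes of -0.46 in both cases (adjusted p = 0.0061 and 0.00647), under the fold limit. The fit of the aorta alone called 8 genes in place of 4, adding Timp4, Mmp28, Adamts9 and Adamts18. The share of all genes called in that fit was not worked out. Adamts18 had at most 12 counts in control aortas and 22 to 103 counts in Prdm6-deficient ones (log2 fold change 3.36 ± 1.16, adjusted p = 0.108 in the fit of all libraries). In the DA it had 0 to 13 counts in controls, with 5 of 7 libraries at 0, and 5 to 65 counts in Prdm6-deficient samples, which overlap (3.34 ± 1.11, adjusted p = 0.0476). With the embryo as a block, limma called Adamts18 higher in both vessels (adjusted p = 0.0096 in the DA and 0.00692 in the aorta), and without control DA replicate 1 edgeR called it in the DA (adjusted p = 0.00559).

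Endothelial markers summed to 1006 to 1246 CPM in the Prdm6-deficient and 599 to 988.1 CPM in the control aorta, with none of the 8 at 0. Macrophage and leukocyte markers summed to 66.16 to 90.79 CPM in the Prdm6-deficient and 104.1 to 202.9 CPM in the control aorta, also with none at 0. The part of these cells in the aortic values was not tested.

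Control DA and control aorta were compared to show where the vessels differ without a change in Prdm6. Of the 39 tested genes, 10 were called (25.64%, against 5.36% of all genes tested), of which 6 were higher in the DA (3.16% of all genes) and 4 higher in the aorta (2.19% of all genes were called lower in the DA). At an unadjusted p under 0.05, 18 of 39 passed. The genes higher in the DA were Adamts1, Adamts9, Adamtsl2, Adamtsl3, Mmp14 and Mmp17, and those higher in the aorta were Adamts8, Adamtsl5, Mmp16 and Timp4. The first 4 of these and Mmp16 were also called between the genotypes in the DA. The 2 comparisons share all 7 control DA libraries, so a control DA library with a high value raises one and lowers the other.

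Adamtsl2 differed most among the called genes, at 40.32 to 66.34 CPM in control DA and 2.626 to 12.53 CPM in control aorta, a ratio of means of 9.09 (log2 fold change 3.18 ± 0.27, adjusted p = 3.62e-09). The highest control aorta value was that of replicate 4. Melanocyte (15.71 CPM), macrophage and leukocyte (202.9 CPM), cardiomyocyte (184.4 CPM) and red blood cell markers (136600 CPM) each had their highest sum among the control aortas there. Epithelial and thymus markers had their lowest sum there (14.32 CPM). The part of these cells in the Adamtsl2 value was not tested. Adamtsl3 was at 6.313 to 11.17 CPM in control aorta (log2 fold change 1.82 ± 0.24, adjusted p = 4.85e-06) and Adamts9 at 93.47 to 151.5 CPM (1.42 ± 0.15, adjusted p = 1.58e-07). For all 3 genes no control aorta reached the lowest control DA library. Adamts1 differed less (0.63 ± 0.12, adjusted p = 0.00043), and its highest control aorta (251.5 CPM) lay above its lowest control DA (248.7 CPM).

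Mmp17 (chr5:129584169-129611099, plus strand) was at 24.69 to 41.98 CPM in control aorta and thus below every control DA library (log2 fold change 1.67 ± 0.18, adjusted p = 2.71e-07). Mmp14 (chr14:54431612-54445364, plus strand) was at 490.1 to 715.2 CPM in control DA and 376.6 to 419.8 CPM in control aorta, without overlap. Its log2 fold change of 0.52 ± 0.09 (adjusted p = 8.48e-05) lies at the fold limit, and it was 0.46 without control DA replicate 3, 0.49 without replicate 5 and 0.48 without replicate 7. Paired by embryo in the 6 control embryos that gave both vessels, it was 0.45 (adjusted p = 0.00312), which also ends the call. Timp2 was higher in the DA too, at 587.0 to 736.5 CPM against 486.3 to 537.7 CPM, but the log2 fold change of 0.31 ± 0.06 (adjusted p = 0.000586) is under the limit.

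Timp4 (chr6:115241892-115252205, minus strand) was the gene of the group that stood highest in the aorta relative to the DA. Control aortas ran from 109.5 CPM over a median of 122.2 CPM to 149.9 CPM, and control DA from 6.562 CPM over a median of 28.1 CPM to 71.28 CPM (log2 fold change -1.95 ± 0.34, adjusted p = 0.00018). The control DA libraries thus differed among themselves by more than 10 times, whereas the control aortas lay close together. Adamtsl5 (-0.84 ± 0.18, adjusted p = 0.00208), Mmp16 (-0.62 ± 0.13, adjusted p = 0.00102) and Adamts8 (-0.54 ± 0.14, adjusted p = 0.00847) were also higher in the aorta, each with some overlap between the groups. The call of Adamts8, which shares 10.6% of its exon bases with Gm29724 on the opposite strand, was lost under 16 of 24 alternative settings, the pairing by embryo among them (adjusted p = 0.0114).

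**Figure D4:**
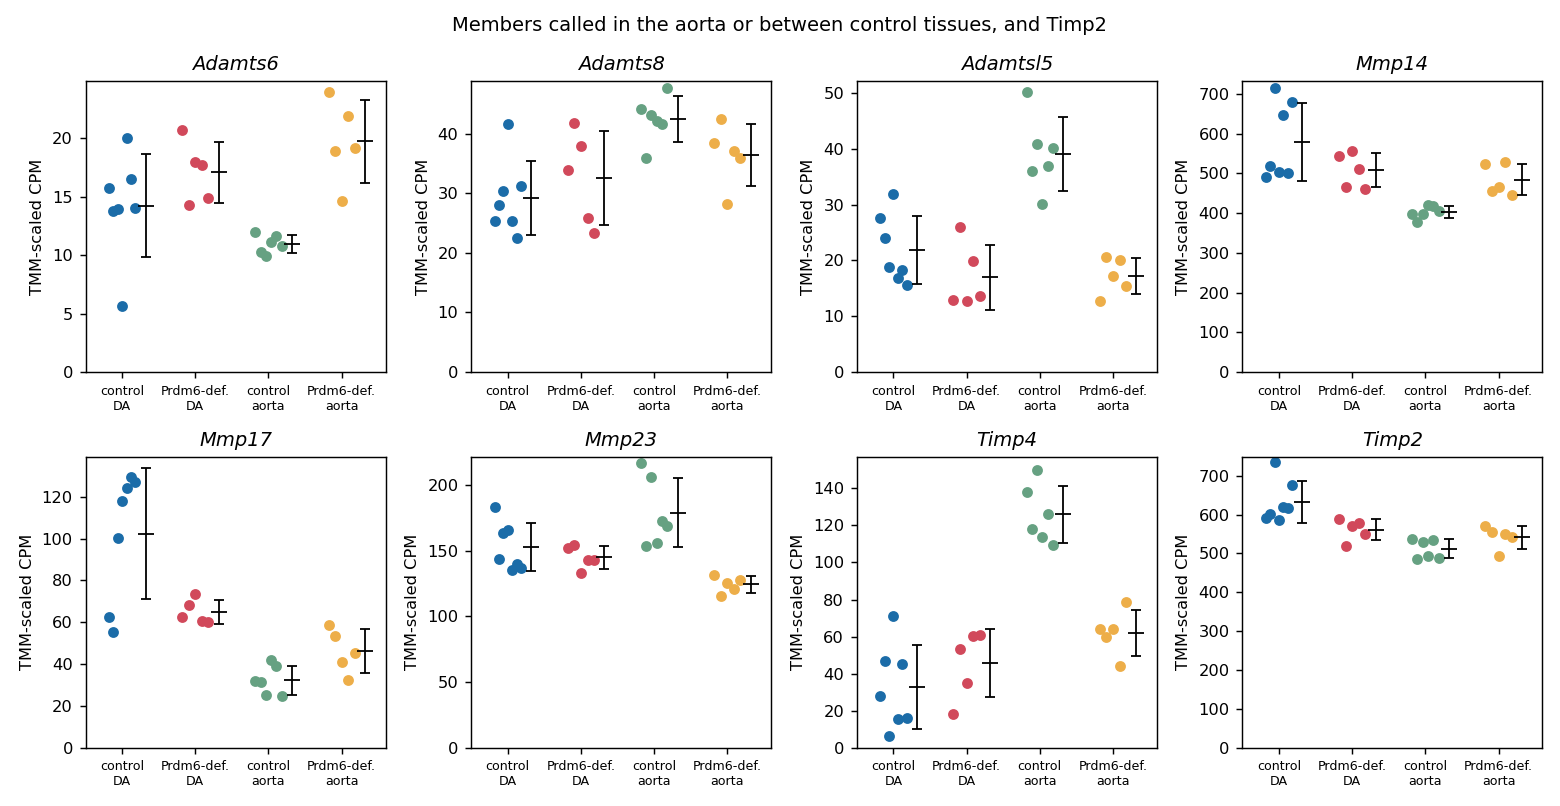
TMM-scaled CPM in each library for the 7 genes called in the aorta or between control tissues but not in the DA, and for Timp2. Points are libraries and black bars are the mean ± SD. Timp4 is at 109.5 to 149.9 CPM in control aorta, above all libraries of the other 3 groups, and the control DA points of Mmp17 fall into 2 low and 5 high values.

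The effect of Prdm6 in the DA was then tested against its effect in the aorta. The difference was called for 4 of the 39 genes (10.26%, against 2.58% of all genes tested), all lower in the DA (1.66% of all genes). With all libraries, 0 were called in the opposite direction by edgeR or by DESeq2 (0.917% of all genes by edgeR), and 17 of 39 had an unadjusted p under 0.05. Without Prdm6-deficient DA replicate 7, edgeR called Adamts12 in the opposite direction (0.80, adjusted p = 0.00385, against 0.66 and 0.0485 with all libraries). In the DA, Adamts12 had a log2 fold change of 0.50 (adjusted p = 0.0135) and was not called. It was called higher there within the first series (0.85, adjusted p = 0.00739). For Adamts9 the difference of log2 fold changes was -2.16 ± 0.23 (adjusted p = 1.17e-06). Its 5 Prdm6-deficient aortas were at 151.1, 181.0, 142.7, 192.8 and 175.6 CPM, above all control aortas but replicate 4, which at 151.5 CPM exceeded 2 of them. The aorta comparison alone did not pass (0.53 ± 0.16, adjusted p = 0.0524). For Adamts1 the difference was -1.06 ± 0.18 (adjusted p = 0.000327), with Prdm6-deficient aortas at 302.3, 245.6, 207.8, 288.2 and 277.9 CPM and control aortas at 179.9 to 251.5 CPM, which overlap.

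For Adamtsl3 the difference was -1.70 ± 0.36 (adjusted p = 0.00343), and the Prdm6-deficient aortas, at 12.08, 11.18, 15.66, 10.75 and 14.24 CPM, overlapped the controls. Without the 2 pooled DA libraries this difference was -1.35 (adjusted p = 0.0136). For Mmp17 it was -1.17 ± 0.27 (adjusted p = 0.00807), with Prdm6-deficient aortas at 58.87, 53.33, 41.19, 32.25 and 45.08 CPM. The Mmp17 call was lost under 21 of 33 alternative settings. The difference for Adamtsl2 was -1.24 ± 0.37 (adjusted p = 0.0503), and without control aorta replicate 4 it was -1.56 and called (adjusted p = 0.00262). Within the second series the differences were -2.13 for Adamts9, -2.30 for Adamtsl3, -0.83 for Adamts1 (adjusted p = 0.04) and -1.44 for Mmp17 (adjusted p = 0.0152), and the first 2 were called.

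Levels were also summed over each family per kilobase. The ADAMTS sum was 226.5 ± 29.4 CPM per kilobase (SD, n = 7) in control DA and 170.9 ± 9.17 (n = 5) in Prdm6-deficient DA. In the aorta it was 186.7 ± 4.28 (n = 6) in controls and 191.9 ± 16.6 (n = 5) in Prdm6-deficient samples. The ADAMTS-like sum was 34.24 ± 3.19 and 23.63 ± 1.97 CPM per kilobase in control and Prdm6-deficient DA, and 31.64 ± 2.21 and 22.11 ± 1.08 in control and Prdm6-deficient aorta. In the DA the mean went from 7.08 to 3.16 CPM per kilobase for Adamtsl2, from 4.39 to 1.80 for Adamtsl3 and from 16.66 to 14.17 for Adamtsl4, which was not called. In the aorta it went from 20.47 to 14.91 CPM per kilobase for Adamtsl4, also not called, and from 8.27 to 3.65 for Adamtsl5. The ratio of the Timp sum to the Mmp sum was 0.569 ± 0.0279 in control DA, 0.593 ± 0.0333 in Prdm6-deficient DA, 0.596 ± 0.0185 in control aorta and 0.612 ± 0.03 in Prdm6-deficient aorta, and the ranges of the 4 groups overlapped.

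Other genes of matrix turnover were read from 3 lists. Of all genes tested, edgeR called 5.43% between the genotypes in the DA and 2.45% in the aorta. Among 24 tested pericellular proteases outside these families, 1 was called higher and 1 lower in the Prdm6-deficient DA. Plau, the urokinase-type activator of plasminogen, had a mean of 26.4 CPM in control and 10.5 CPM in Prdm6-deficient DA (log2 fold change -1.33 ± 0.16, adjusted p = 7.81e-07). Fap, a serine protease of activated fibroblasts, had a mean of 19.3 CPM in control and 41.0 CPM in Prdm6-deficient DA (1.09 ± 0.13, adjusted p = 1.37e-06). In the aorta 1 of the 24 was called by edgeR, Ctsd, a lysosomal protease, which was higher (0.50 ± 0.07, adjusted p = 1.06e-05). Its fold is just past the limit of 0.5. DESeq2 called 2 of the 24 higher there, and 13 had an unadjusted p under 0.05 by edgeR.

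Among 19 inhibitors, enhancers and receptors, 2 were higher and 2 lower in the Prdm6-deficient DA. Cst3, an inhibitor of cysteine cathepsins, rose (log2 fold change 0.77 ± 0.11), as did the complement inhibitor Serping1 (0.86 ± 0.21). Sdc4, a heparan sulfate proteoglycan of the cell surface, fell (-0.56 ± 0.08), as did the anti-angiogenic serpin Serpinf1 (-0.52 ± 0.13). In the Prdm6-deficient aorta Reck, a membrane-anchored inhibitor of Mmp enzymes, was higher (0.61 ± 0.12, adjusted p = 0.00145), and Thsd4, a fibrillin-binding relative of the ADAMTS-like proteins, was lower (-0.56 ± 0.13, adjusted p = 0.00963).

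Among 23 tested matrix substrates, 3 were higher and 3 lower in the Prdm6-deficient DA. Acan, which encodes the proteoglycan aggrecan, had a mean of 85.7 CPM in control and 261.4 CPM in Prdm6-deficient DA (log2 fold change 1.61 ± 0.26, adjusted p = 6.73e-05), and it is also one of the cartilage markers above. The small proteoglycan gene Lum (1.44 ± 0.20), also one of the adventitial fibroblast markers, and the fibrillar collagen gene Col3a1 (0.73 ± 0.17) were also higher. Thbs1, which encodes the matricellular protein thrombospondin-1, fell by the most among the called substrates (-2.32 ± 0.21, adjusted p = 1.12e-08), and fibronectin (Fn1, -0.79 ± 0.14) and the latent TGF-beta binding protein Ltbp1 (-0.65 ± 0.13) were lower too. In the Prdm6-deficient aorta 3 of the 23 were higher, namely Lum (1.61 ± 0.21), the fibrillin gene Fbn2 (1.52 ± 0.12) and Ltbp1 (0.62 ± 0.13), and 0 were lower by edgeR or by DESeq2. The median log2 fold change over the tested genes of the 3 lists lay between -0.07 and 0.15 in the DA, and between -0.05 and 0.10 in the aorta.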

How the data were processed

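Bulk RNA-Seq libraries were made from the DA and ascending aorta of mouse embryos, 24 samples in the labels, of which 23 were analysed here. Per the study's methods and the labels, the authors filtered reads, aligned them to mm10 with STAR and estimated gene expression with RSEM under a GENCODE annotation. The deposited values are RSEM expected counts (estimated counts) per gene, not scaled for depth or length by the authors. RSEM divides reads among genes with similar sequence, and the counting is not stated to use strand. Versions of STAR and RSEM are not given in the sources used here.

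Expected counts were rounded to whole numbers. Identifiers were matched to GENCODE M21 (53861 of 54752 with version, 862 without, 29 not matched), and Mmp1a, a pseudogene in that annotation, was left out. edgeR 4.0.16 (filterByExpr, TMM, quasi-likelihood test) was fitted to all 23 libraries with 1 mean per vessel and genotype, and 4 contrasts were tested over 16463 genes. The limits for a call were 0.01 on the adjusted p and 0.5 on the absolute log2 fold change. Libraries held 15163931 to 22610501 counts, and limits from 3 counts cover counting error only. CPM per kilobase used the union of exon bases.

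Groups came from the sample titles and animals from the descriptions. Animal numbers fell into 2 runs, treated as 2 series. DA and aorta of the same embryo or pool deviated together only weakly (median correlation 0.033 over 10 pairs, estimated intra-embryo correlation 0.0337). Equal title numbers do not mark the same embryo. No 2 libraries of a group were alike within sampling noise. Alternatives were DESeq2 1.42.0, limma 3.58.1 with an embryo block, other scaling, no filter, covariates, subsets and leaving out each library. In the embryo block, the embryos of a pool shared a block. The fitting functions were tested on simulated data.

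Genes named are those called in any contrast, all Timp genes, the 3 best expressed of each protease family, and up to 5 called genes per list and direction. Mmp28, Adamts18 and others outside this rule were named after their values were seen. The members and lists were chosen with earlier results of these data known.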

Additional observations from a re-analysis of the deposited data

Results flagged for a closer look

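The difference between the Prdm6 effect in the DA and that in the aorta was itself past the threshold for Adamts9 (-2.16 on the log2 scale), Adamtsl3 (-1.70), Mmp17 (-1.17) and Adamts1 (-1.06). Each of the 4 had a lower mean in Prdm6-deficient than in control DA and a higher mean in Prdm6-deficient than in control aorta.

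In 84 groups of 5 to 7 libraries (21 named genes in 4 groups), 2 held a library that stood far from the others, both times replicate 4 of the Prdm6-deficient aorta. Adamts10 was at 166.7 CPM there, against 215.7 to 233.8 CPM in the other 4 libraries. Timp3 was at 107.3 CPM there, against 92.89 to 96.9 CPM in the others. Chance flags about 1 in 20 groups.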

How the results depend on the processing

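No called gene of the group changed direction under any alternative. The number called between the genotypes was 8 in the DA and 4 in the aorta, 10 between control vessels, and 4 for the difference of effects. With adjusted p below 0.05 and no fold limit these became 14, 7, 14 and 9, and the shares of all genes at these limits were not worked out. A fit of the compared groups alone gave 8 in the aorta. Without the 2 pooled samples the difference of effects gave 2, and without the Cre-positive control embryo the aorta gave 2. Within the first animal series the DA gave 4, and within the second the DA gave 5, the aorta 0 and the difference of effects 2. These fits hold fewer samples. Leaving out 1 library at a time gave 7 to 10 in the DA, 2 to 5 in the aorta (2 without control aorta replicate 1 or 3), 8 to 11 between control vessels and 3 to 5 for the difference of effects. DESeq2 gave 11 (3 higher and 8 lower, against 3 and 5), 5, 12 and 4. With the replicate number as a block the counts were 8, 3, 10 and 3, and with the embryo as a block 9, 6, 12 and 3. In the 6 control embryos with both vessels, a block by embryo gave 8. For every alternative fit in this paragraph the share of all genes called was not worked out, so these counts cannot be set against it. Genes at few counts, such as Adamts18 and Mmp8, are limited by depth.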
